A study of Mus musculus with 10 samples.

Results

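Among the mouse miRNA probes of a single-colour array, 243 of 1040 carried a single name of the form miR- followed by a number of 1000 or more, and these late-numbered probes are described here. Any letter or arm suffix was accepted, and miR-1187, miR-1983 and miR-3102 were left out by rule. They were set beside 39 probes for viral miRNAs (29 for mouse cytomegalovirus, mcmv, and 10 for murine gammaherpesvirus, mghv) and beside the 779 other mouse probes with a single name. RNA came from mIMCD-3, an established cell line derived from the mouse inner medullary collecting duct, the last segment of the kidney tubule. The series examined how aldosterone affects the miRNAs of this line. All cultures were grown on transwell filters and held for 24 h in hormone-free medium. There were 5 arrays from cells given 100 nM aldosterone, a steroid hormone that acts on the collecting duct through the mineralocorticoid receptor, and 5 from cells given ethanol vehicle. No label says that the samples came from separate cultures, and the p-values therefore cover only the variation among these arrays, part or all of which may be technical.

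miRNAs are short RNAs that guide Argonaute proteins to messenger RNAs, mainly through pairing of the seed, bases 2 to 8 of the mature strand. Registry numbers were given in order of submission, so high numbers mark miRNAs described late, mostly from deep sequencing of small RNA. Many of these are rare or tissue-restricted, and some entries were later withdrawn as fragments of other small RNAs. A letter after the number marks closely related mature sequences, and an asterisk marks the strand of the hairpin that was thought to be the minor strand. The mouse line was not described as infected, so the viral probes served as a check on the background.

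RefSeq, in build GRCm38.p6, held a mature sequence under the same name for 95 of the 243 late-numbered probes. Of those 95, 74 lay within the span of another annotated gene. Strands were not compared, so a gene named here or below may lie on the opposite strand. The following sequences are of the miRNAs whose probes exceeded every viral probe on all 10 arrays and had a RefSeq entry, with the seed in capitals.
miR-2137: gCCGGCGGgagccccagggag
miR-2861: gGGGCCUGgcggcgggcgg
miR-1195: uGAGUUCGaggccagccugcuca
The first lies on the plus strand at chrX:72992113-72992133, within the span of Zfp185. The second lies on the minus strand at chr2:32712819-32712837, and the third on the minus strand at chr17:70860558-70860580, both outside the span of any other gene in the table. Whether a miRNA lies in an exon or an intron was not analysed here. Nor was it examined whether these sequences occur elsewhere in the genome, so the positions do not tie a probe's signal to a single locus.

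Only 2 seeds were shared among the 95 sequences, and they are shown because strands with the same seed gave unlike readouts.
miR-2861: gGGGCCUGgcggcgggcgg
miR-3091-3p: cGGGCCUGaccagucucaagac
miR-3085-3p: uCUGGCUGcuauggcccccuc
miR-3064-5p: uCUGGCUGuuguggugugcaaa
The first seed was carried by miR-2861, detected on 10 arrays, and by miR-3091-3p at chr2:180257580-180257601 on the plus strand, detected on 0. The second was carried by miR-3085-3p at chr19:42280095-42280115 on the minus strand, detected on 10 arrays, and by miR-3064-5p at chr11:106782736-106782757 on the minus strand, detected on 5. Probes that share a seed differ in the rest of the sequence, and the array reads the whole strand.

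Detection on an array required both spots of a probe to lie above the threshold that the authors applied. The array had 3136 spots, of which 778 were blank, and 40 to 61 blank spots per array passed that threshold, as did 0 to 9 of the 24 negative-control spots. Intensities below are background-corrected, quantile-normalized units above background, and the number of arrays limits their precision. Duplicate spots of detected late-numbered probes differed with a median CV of 10.3% to 15.9% per array. Of the miRNAs taken as markers of the line, miR-200a (94.0 ± 36.5), miR-200b (94.9 ± 32.7), miR-429 (34.0 ± 17.2) and miR-194 (9.96 ± 1.58, SD, n = 10) were detected on all 10 arrays. By contrast, miR-192 was detected on 9, miR-200c on 2 and miR-141 on 1. Whether any of these miRNAs is specific to the collecting duct was not tested. The muscle markers miR-1 and miR-133a, the neuronal miR-124 and the blood markers miR-142-3p, miR-144 and miR-223 were detected on 0 arrays. Other markers of the same lists did pass the threshold, with the muscle marker miR-206 on 10 arrays (9.62 ± 2.38, SD, n = 10), the endothelial miR-126-3p on 9, miR-9, a neuronal marker, on 8 and the red cell miR-451 on 1.

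Late-numbered probes were detected at about the rate of other mouse probes, and the viral probes were not far below. On all 10 arrays 53 of the 243 late-numbered probes were detected (21.8%), against 7 of 39 viral probes (17.9%) and 186 of 779 other mouse probes (23.9%). A further 55 late-numbered probes were detected on 5 to 9 arrays and 60 on 1 to 4. No array detected the remaining 75 (30.9%), compared with 16 viral probes (41.0%) and 278 other mouse probes (35.7%). The count detected throughout moved with the rule, to 80 late-numbered probes when a single spot above the threshold sufficed, 45 at 3 SD, 38 at 5 SD and 38 at 2 SD of all blank spots.

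**Figure D1:**
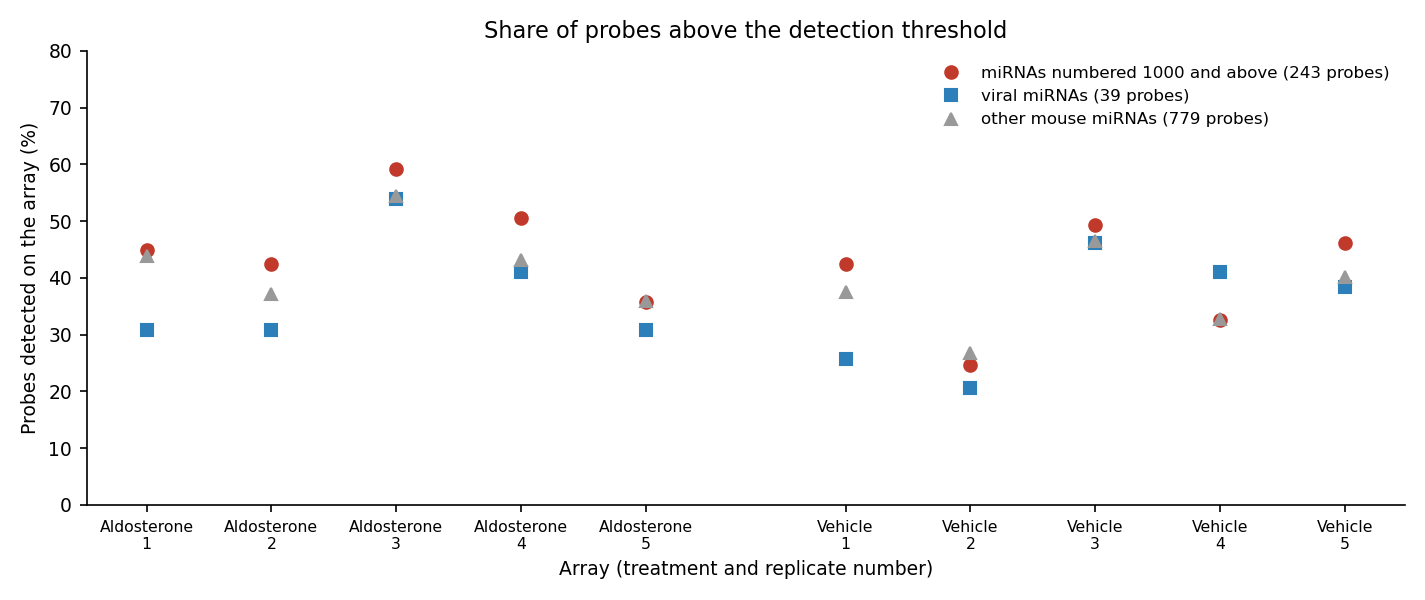
Percent of probes detected on each array, for late-numbered miRNAs (circles), viral miRNAs (squares) and other mouse miRNAs (triangles), with aldosterone arrays on the left and vehicle arrays on the right. Late-numbered probes range from 24.7% on vehicle 2 to 59.3% on aldosterone 3 and lie above the viral probes on 9 of 10 arrays.

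Array by array, the late-numbered share was 44.9%, 42.4%, 59.3%, 50.6% and 35.8% on the aldosterone arrays 1 to 5, against 42.4%, 24.7%, 49.4%, 32.5% and 46.1% on the vehicle arrays. The viral share was 30.8%, 30.8%, 53.8%, 41.0% and 30.8% with aldosterone and 25.6%, 20.5%, 46.2%, 41.0% and 38.5% with vehicle. Both shares were highest on aldosterone 3 and lowest on vehicle 2. The late-numbered share exceeded the viral share by 6.90 ± 7.01 percentage points (SD, n = 10), with vehicle 4 as the exception (exact sign-flip permutation p = 0.01758, two-sided). With same-numbered arrays averaged to 5 pairs, the p was 0.0625, the smallest that exact test can give. The viral families differed. The difference was 2.80 points against the 29 mcmv probes alone (exact sign-flip permutation p = 0.3125) and 18.8 points against the 10 mghv probes alone (exact sign-flip permutation p = 0.001953). Both take the 10 arrays as separate. Neither family was tested with arrays averaged to 5 pairs, where the exact sign-flip permutation test cannot give a p under 0.0625. These tests ask whether the difference recurs over arrays and not whether it holds for other probes.

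Set against the other mouse probes, the late-numbered share was higher by 2.99 ± 3.15 points (SD, n = 10) and on 7 of 10 arrays (exact sign-flip permutation p = 0.02344, two-sided). With same-numbered arrays averaged to 5 pairs it no longer passed (exact sign-flip permutation p = 0.0625, the smallest possible). Nor did the difference hold at stricter thresholds. It was 0.46 points at 3 SD above the blank mean (exact sign-flip permutation p = 0.3633) and -0.63 at 5 SD (p = 0.2988 by the same exact test).

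Counts are given next by range of the registry number. From miR-1186 to miR-1306, 9 of 32 probes had detection on all 10 arrays and 11 had none. The 87 probes from miR-1839 to miR-1982 had 23 detected throughout and 19 nowhere. Of the 7 probes from miR-2136 to miR-2861, 4 were detected throughout and 0 nowhere. The 110 probes from miR-3057 to miR-3113 made up the largest range, with 16 detected throughout and 41 nowhere. Among the 7 probes from miR-3470 to miR-3475, miR-3473 was the single probe detected throughout, and 4 were detected nowhere. The ranges are described without a test.

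Brightness overlapped with the viral probes over most of its range. The median over probes of the mean intensity was 4.16 for late-numbered probes, against 3.79 for viral and 3.99 for other mouse probes. The sets stood further apart at the 90th percentile, with 35.9 for late-numbered, 9.42 for viral and 37.0 for other mouse probes. Probes differ in how well they hybridize, so such levels describe the readout and do not rank the amounts of the miRNAs.

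**Figure D2:**
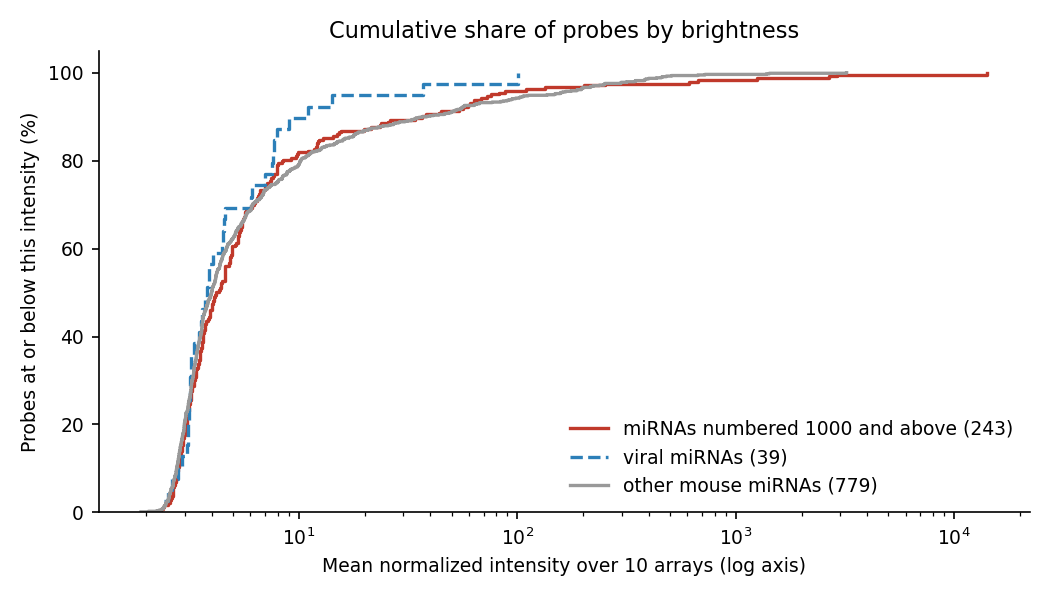
Cumulative percent of probes at or below a mean normalized intensity over 10 arrays (log axis), for late-numbered (red), viral (dashed) and other mouse probes (grey). The curves run close together up to about the medians of 4.16, 3.79 and 3.99, and the viral curve ends at 101, below the brightest late-numbered probes.

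The brightest viral probe on 9 arrays was mcmv-miR-M23-1-5p, at 109, 120, 86.1, 117 and 82.2 with aldosterone and 109, 67.0, 64.1, 148 and 109 with vehicle. On vehicle 2 mghv-miR-M1-9 was brighter, at 86.1, and it averaged 36.8 ± 18.6 over the 10 arrays (SD). The third, mcmv-miR-m01-1, averaged 14.1 ± 5.49, and mcmv-miR-M23-2, mcmv-miR-M87-1, mcmv-miR-M95-1-5p and mghv-miR-M1-2 were also detected on all 10 arrays. A late-numbered probe was set against the brightest of these on each array.

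By that measure 8 late-numbered probes (3.29%) exceeded every viral probe on all 10 arrays, against 32 of 779 other mouse probes (4.11%). They were miR-2145, miR-1937b, miR-1937a, miR-2137, miR-2861, miR-1195, miR-1937c and miR-1944. RefSeq held no mature sequence under the same name for miR-2145, miR-1937a, miR-1937b, miR-1937c or miR-1944. Whether these probes read miRNAs or fragments of other small RNAs was not tested. Against the 90th percentile of the viral probes 39 late-numbered probes (16%) passed on all arrays, and the background among other mouse probes was 16%. Of the 53 probes detected on all arrays, 36 exceeded the brightest viral probe on none of them.

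miR-2145 was the brightest miRNA probe on every array, and quantile normalization gave it the same value, 14199, on each. Its raw intensity above the blank mean was 18156, 15083, 21134, 14453 and 14847 with aldosterone and 15999, 10134, 15245, 9426 and 11621 with vehicle. All 5 same-numbered pairs had the higher raw value under aldosterone, which averaged 16735 ± 2867 against 12485 ± 2983 for vehicle (SD, n = 5 each), although the ranges of the groups overlapped. The same held for the array signal as a whole. Over the 244 mouse probes detected on all arrays the median raw signal was higher in 5 of 5 pairs, by a mean log2 ratio of 0.51, while that of miR-2145 was 0.44. Of the 53 late-numbered probes detected on all arrays, 31 (58.5%) were higher in all 5 pairs on the raw scale, where the background was 48.8%.

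The 3 probes of miR-1937 were all bright. miR-1937b read 2702, 2909, 2702, 3439 and 2909 with aldosterone and 2909, 1678, 2909, 3439 and 3439 with vehicle. miR-1937a read 2909, 2702, 1678, 2909 and 2702 with aldosterone and 2702, 2702, 2702, 2909 and 2909 with vehicle. The repeated values arise because quantile normalization gives every probe of the same rank the same value. miR-1937c was dimmer, at 245, 291, 155, 333 and 188 with aldosterone and 227, 180, 120, 500 and 291 with vehicle. Since the letters mark closely related strands, these probes are not independent readings.

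miR-2137 read 1208, 1026, 1208, 1678 and 1026 with aldosterone and 1208, 1026, 1208, 1678 and 1208 with vehicle. miR-2861 read 718, 604, 573, 718 and 519 with aldosterone and 604, 847, 482, 1026 and 604 with vehicle. As the sequences above show, these were the members richest in G and C among the 95, at 85.7% and 94.7% GC. miR-1195 read 573, 718, 333, 573 and 604 with aldosterone and 455, 1208, 350, 573 and 718 with vehicle. miR-1944 read 188, 237, 102, 192 and 273 with aldosterone and 195, 245, 161, 227 and 199 with vehicle. The groups overlapped for each of these probes.

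**Figure D3:**
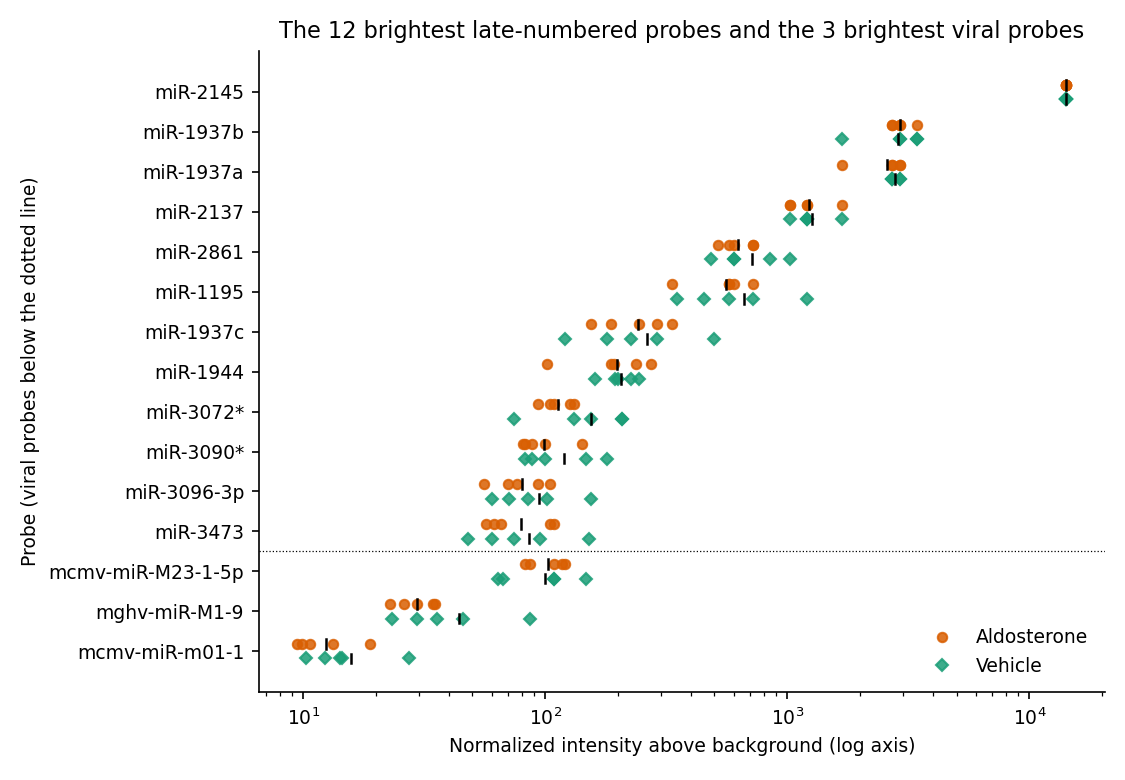
Normalized intensity above background (log axis) of the 12 brightest late-numbered probes and, below the dotted line, the 3 brightest viral probes, with 1 point per array and a short black line at each group mean (n = 5; circles for aldosterone, drawn above diamonds for vehicle). Aldosterone and vehicle points overlap for every probe shown except miR-2145, which sits at 14199 on all arrays.

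Below this set, miR-3072* exceeded the brightest viral probe on 9 arrays, miR-3090* on 4 and miR-3473 on 3. Another 6 probes did so on 1 array each, namely miR-3096-3p, miR-1894-3p, miR-1965, miR-3077*, miR-1902 and miR-1949. The other 226 late-numbered probes did so on none. Over the 53 probes detected throughout, the CV across the 10 arrays had a median of 22.1% and reached 48.5%.

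Both arms of a hairpin were probed for 79 late-numbered hairpins. Both probes were detected on all arrays for 2 of these, miR-3072 and miR-1894, a single arm for 20, and neither for 57, of which 14 had no detection of either arm on any array. The probe for miR-3090* averaged 109, against 4.60 for miR-3090. For miR-3084 the mean was 75.6, and for miR-3084* 2.96. These are means over 10 arrays of separate probes and do not give the ratio of the strands.

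The strands from known loci gave mixed readings. The Dlk1-Dio3 region is an imprinted domain whose miRNAs are transcribed from the maternal chromosome. Of its 15 late-numbered probes, 5 had detection throughout (miR-3072*, miR-3072, miR-1247*, miR-1906 and miR-1188*) and 6 nowhere. Over all 243 late-numbered probes the shares were 21.8% throughout and 30.9% nowhere. RefSeq held 2 loci for miR-1906, so its signal cannot be tied to a single locus. miR-3072* read 132, 127, 93.7, 109 and 105 with aldosterone and 132, 207, 74.3, 207 and 155 with vehicle. Its partner miR-3072 read 37.6, 43.0, 28.7, 48.8 and 39.6 with aldosterone and 35.0, 20.7, 34.2, 38.4 and 38.4 with vehicle. The aldosterone mean was thus below the vehicle mean for the asterisk strand and above it for its partner, and the groups overlapped for both. Of the 5 probes of the region that were tested, 2 had a log2 change above 0, 0 passed the test and the median was -0.0036, against 0.0025 over all 430.

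The Htr2c intron cluster lies in a serotonin receptor gene used by neurons. No array detected 4 of its 6 probes, and 0 were detected throughout. Its brightest probe was miR-1912*, detected on 1 array. For comparison, 30.9% of all 243 late-numbered probes were detected nowhere and 21.8% throughout, and so small a list was not tested against these shares. The strands transcribed opposite other miRNA genes, miR-3065 and miR-3074, had 5 probes, with 0 detected on all arrays. miR-1224, a mirtron released from a short intron by splicing, was detected on all 10 arrays and miR-1224* on 9. The intensity of miR-1224 was 60.8 ± 10.3 under aldosterone and 58.1 ± 4.39 under vehicle (SD, n = 5 each). miR-1306 is encoded in Dgcr8, whose product is a partner of the Drosha nuclease, and was detected on 8.

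GC content was higher in the probes detected more often, among the 95 with a sequence. These 95 leave out all probes with an asterisk, and also miR-2145, miR-1937a, miR-1937b, miR-1937c and miR-1944. They hold 16 of the 53 late-numbered probes detected on all arrays, so the trend may not hold for the rest. The median GC content was 62.3% for the 16 detected on all arrays, 60.9% for the 23 on 5 to 9, 54.6% for the 30 on 1 to 4 and 51.0% for the 26 on none. Of 30 sequences with at least 60% GC, 9 had detection throughout and 2 nowhere. Of 12 under 45% GC, 0 had detection throughout and 6 nowhere. Across probes, GC content and log2 mean intensity had a Pearson r of 0.54 and a Spearman rho of 0.57 (n = 95). Probes on the same arrays are not independent, so this is a description. Base composition was not separated from abundance and the part of either in these readings was not tested.

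**Figure D4:**
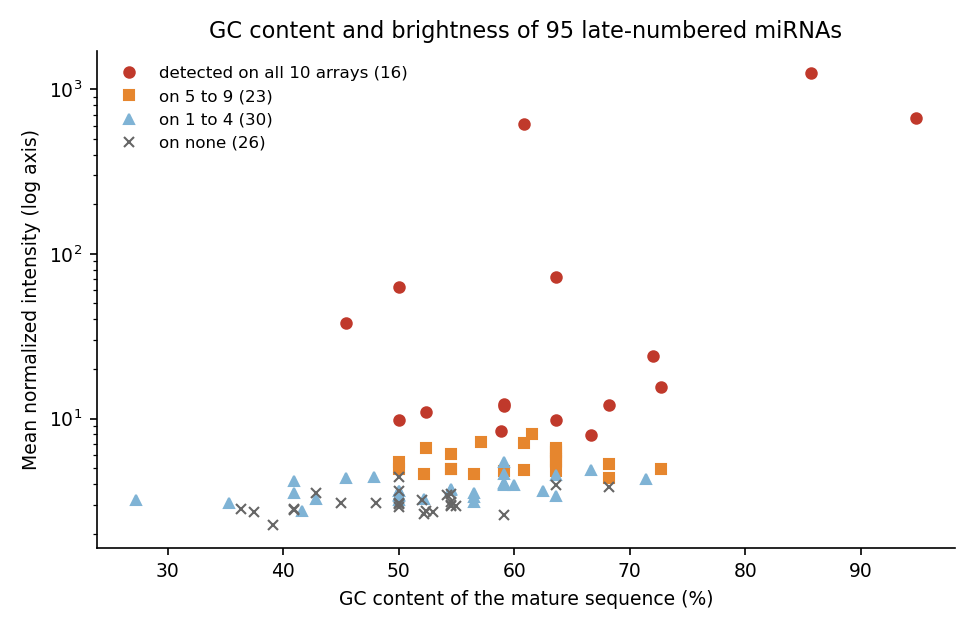
GC content (percent) against mean normalized intensity over 10 arrays (log axis) for the 95 late-numbered miRNAs with a RefSeq sequence, marked by the number of arrays on which each was detected. The 26 detected on no array have a median GC content of 51.0%, and the 16 detected on all arrays 62.3%.

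The treatment comparison asked whether aldosterone changed these miRNAs. No late-numbered probe passed the test. Of the 243, 108 were detected on at least 5 arrays and tested, within a fit of all 430 such mouse probes, and 135 were not tested. The 108 include miR-2145, which could not pass because quantile normalization gave it the same value on every array. In limma's test 0 of the 108 had a Benjamini-Hochberg adjusted p under 0.05, with 0% called among the 430, and the smallest adjusted p was 0.9445 (0.7438 with the replicate number as a block). At an unadjusted p under 0.05 there was 1 of 108, miR-1306, where the background was 1.86%. With the block there were 0 of 108, while 19 of the 430 reached that level. No tested late-numbered probe had groups that failed to overlap in either direction, as for the 430 (0%).

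Quantile normalization gives all arrays the same distribution over the 1079 miRNA probes, so changes over that whole set are centred on 0 by construction. For the 430 tested probes, a part of that set, such balance is favoured but not fixed. On that scale the log2 change, aldosterone minus vehicle, was above 0 for 52 of the 108 (48.1%) and below 0 for 56, where 53% of the 430 were above 0. The 56 include miR-2145, whose change was 0 by construction and fell below 0 only by rounding. The median log2 change was -0.0016, against 0.0025 over all 430, and the changes ranged from -0.29 for miR-3072* to 0.16 for miR-3084. The split depended on the scaling, with 96.05% of the 430 higher without normalization, 75.35% with scaling to the spike controls and 13.95% with 75th percentile scaling. The median half-width of the 95% interval was 0.049 and its 90th percentile 0.33. Because 50 units are added before taking the log, dim probes cannot show a large change on this scale, and the intervals carry that limit. Among the 108 tested, only miR-1966 was higher in 5 of 5 pairs, where the background was 3.72%. Only miR-3104-5p of the 108 was lower in 5 of 5, where the background was 2.33%.

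**Figure D5:**
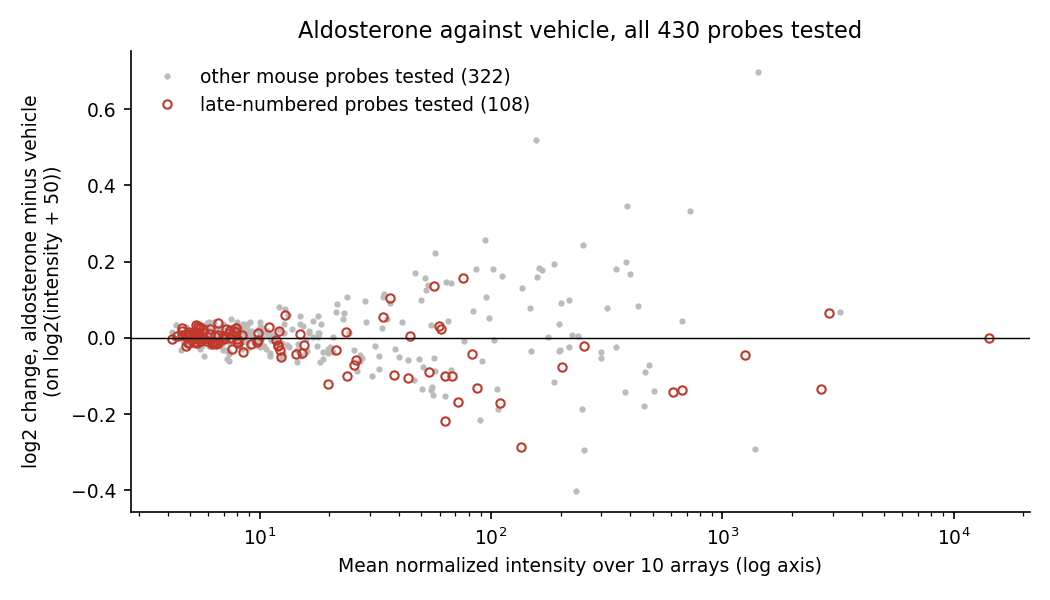
Log2 change, aldosterone minus vehicle, on the log2(intensity + 50) scale against mean normalized intensity over 10 arrays (log axis) for the 430 mouse probes tested, with 108 late-numbered probes as open red circles and 322 others as grey dots. Late-numbered probes lie between -0.29 and 0.16, and none passed the adjusted threshold.

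The tested probes with the smallest unadjusted p in each direction are given as examples of the spread. miR-1306 read 5.39, 5.48, 6.57, 5.87 and 7.18 with aldosterone and 5.43, 4.74, 5.03, 4.95 and 4.71 with vehicle. The groups overlapped only through vehicle 1, and the log2 change in limma was 0.03 ± 0.012 (SE, adjusted p = 0.9445). With the blank mean subtracted in place of the offset it was 0.46 (limma adjusted p = 0.9167), in the authors' deposited values 0.50 (limma adjusted p = 0.6765), and with 75th percentile scaling -0.02. Beside it in the upward direction stood miR-1943* (8.43 ± 0.75 with aldosterone and 7.39 ± 0.56 with vehicle), miR-1982*, miR-1249* and miR-3057-3p.

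miR-3104-5p read 22.2, 18.4, 19.8, 23.7 and 21.9 with aldosterone and 22.4, 34.2, 20.1, 32.5 and 23.3 with vehicle. Its sequence is shown because it alone among the tested late-numbered probes was lower in all 5 pairs.
miR-3104-5p: uAGGGGGCaggagccggagcccucu
It lies on the plus strand at chr7:141992180-141992204, within the span of Brsk2. Its log2 change was -0.10 ± 0.054 (SE, limma adjusted p = 0.9445) and -0.064 without vehicle 2. miR-3077* averaged 53.7 ± 7.61 with aldosterone and 72.5 ± 26.9 with vehicle, a log2 change of -0.22 that was -0.11 without vehicle 4. miR-3072* averaged 113 ± 15.8 with aldosterone and 155 ± 56.0 with vehicle, a log2 change of -0.29 that was -0.46 without vehicle 3. The remaining downward examples were miR-1247* and miR-1249. Under other scalings of the arrays several of these directions turned, as for all 4 of miR-3104-5p, miR-1247*, miR-3077* and miR-3072* without normalization between arrays.

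Detection was compared between treatments as well. On average 46.6 ± 8.86% of the late-numbered probes were detected on aldosterone arrays and 39.0 ± 10.2% on vehicle arrays (SD, n = 5 each). The difference of 7.57 points was within the spread between arrays by an exact permutation test (p = 0.2698, two-sided, smallest possible 0.007937). Within pairs 4 of 5 were higher with aldosterone (exact sign-flip permutation p = 0.25, smallest possible 0.0625). The difference was 3.99 points without vehicle 2. The higher raw signal of the aldosterone arrays, given above, ran alongside it, and its part in the difference was not tested.

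By probe, 77 of 243 late-numbered probes (31.7%) were detected on more aldosterone than vehicle arrays, against 26.6% of the other mouse probes and 23.1% of the viral probes. Detection on more vehicle arrays was seen for 18 (7.41%), against 8.34% of other mouse and 10.3% of viral probes. The single late-numbered probe of the 243 detected on all arrays of a treatment and on at most 2 of the other was miR-3064-3p. It was detected on 5 aldosterone and 2 vehicle arrays. How many other mouse or viral probes met this rule was not counted, so the probe is shown as an example only.
miR-3064-3p: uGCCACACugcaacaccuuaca
It lies on the minus strand at chr11:106782695-106782716, within the span of Ddx5. Its intensity was 5.32, 6.46, 5.30, 6.47 and 6.10 with aldosterone and 5.56, 3.56, 5.24, 6.01 and 4.58 with vehicle. The groups overlapped, and the limma adjusted p was 0.9445. The gap between late-numbered and viral detection was 9.15 ± 3.92 points with aldosterone and 4.65 ± 9.09 points with vehicle (SD, n = 5 each), which did not differ beyond the spread (exact permutation p = 0.3651, two-sided).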

How the data were processed

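Each deposited array file held a raw intensity for every spot. Per the deposited column notes, the authors took the blank mean off each spot, kept spots above it by 2 SD and scaled each array. Their deposited normalized signal has a median of 25 per array and was an alternative here. The authors' kept spots were used as detection calls. These calls imply a threshold 1.29 to 2.04 units above the authors' background value, below 2 SD of all blank spots on the arrays, so that stricter rule was added after seeing the data. The scanner used and how long treatment lasted were not given in the sources used here.

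Raw intensity was corrected with normexp (offset 50), log2-transformed, averaged over the 2 spots of a probe (4 spots flagged NG were left out) and quantile-normalized over 1079 miRNA probes. Mouse probes detected on at least 5 arrays were compared with limma's lmFit and eBayes (R 4.3.3, limma 3.58.1), with Benjamini-Hochberg adjustment over all 430. Detected shares were compared by exact permutation and sign-flip tests. Probe names are those of the files. The array files give no counts or depth.

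Probes named were the 10 brightest detected throughout, the 5 in each direction with the smallest unadjusted p, those above every viral probe, those detected by treatment, list members and pairs sharing a seed. miR-1966, miR-3084 and miR-3090 were named after their values were seen, as were the arm examples and the probes above every viral probe on only some arrays. The members and lists were chosen with earlier results of these data known.

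Titles share 5 starting codes across treatments, numbered as replicates 1 to 5. Arrays of the same number deviated together from their group means (r of 0.507, 0.372, 0.814, 0.745 and 0.202 for replicates 1 to 5). The numbers were therefore taken as pairs in the counts within pairs and in the alternative tests. The main limma fit and the main exact tests did not use this pairing. The meaning of the codes is not given in the labels.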

Additional observations from a re-analysis of the deposited data

Results flagged for a closer look

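In groups of 5 arrays, a sample was marked where its gap to the nearest other sample, divided by the range, exceeded Dixon's 95% critical value. Of 70 groups checked, 7 were marked, where chance marks about 1 in 20. On aldosterone 4, miR-1937b read 3439 (others 2702 to 2909), miR-2137 1678 (others 1026 to 1208) and miR-3077* 66.99 (others 48.8 to 52.4). On aldosterone 3, miR-1937a read 1678, below the others at 2702 to 2909. On aldosterone 2, miR-1264-3p read 4.232 (others 2.16 to 2.61), although it was detected on 0 arrays. On vehicle 4, miR-2137 read 1678 (others 1026 to 1208), the same value as on aldosterone 4. On vehicle 2, miR-3072 read 20.65, below the others at 34.2 to 38.4. The values of miR-1937a, miR-1937b and miR-2137 move in steps between ranks of the quantile normalization.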

How the results depend on the processing

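The count of late-numbered probes changed by aldosterone was 0 under every alternative run, including the replicate block (smallest adjusted p 0.7438), and 0 without each array in turn. The replicate block changed no other call of that test. Detected throughout were 80 with a single spot above the threshold, 45 at 3 SD, 38 at 5 SD and at 2 SD of all blank spots, and 53 to 63 without each array. Late-numbered minus viral was 2.798 points for mcmv probes alone, 18.8 for mghv probes alone, 6.901 with pairs averaged as the replicate block (exact sign-flip permutation p = 0.0625) and 5.807 to 8.614 without each array. Late-numbered minus other mouse was 0.4612 at 3 SD, -0.6296 at 5 SD, -0.01479 at 2 SD of all blank spots, 2.991 with the replicate block (exact p = 0.0625) and 2.492 to 3.547 without each array. Aldosterone minus vehicle detection was 3.992 to 10.27 without each array. Above every viral probe were 8 to 9 without each array, and 39 against the viral 90th percentile. The cause of these changes was not tested. Directions of log2 changes turned for miR-3104-5p (0.07834), miR-1247* (0.121), miR-3077* (0.1283), miR-3072* (0.212) and miR-1249 (0.00931) without normalization. With 75th percentile scaling they turned for miR-1306 (-0.02021), miR-1943* (-0.02534), miR-1982* (-0.0133) and miR-3057-3p (-0.02268). With spike scaling they turned for miR-3104-5p (0.01768), miR-1247* (0.05467), miR-3077* (0.02351) and miR-3072* (0.07563), and in the deposited table for the same probes at 0.1478, 0.2988, 0.134 and 0.1719. Of all tested probes, 96.05% were higher without normalization, 13.95% with 75th percentile scaling, 75.35% with spike scaling and 71.59% in the deposited table, whose median change was 0.2201. Leaving out vehicle 2 gave 0.01412 for miR-3057-3p and -0.03116 for miR-1247*, and leaving out vehicle 4 gave -0.01591 for miR-1249. Without the offset (blank mean subtracted), sizes were larger, such as 0.4567 for miR-1306, 0.6772 for miR-1982* and -0.3243 for miR-3104-5p. Signals close to background limit every dim probe.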
